A study of Mus musculus with 29 samples.

Results

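Intestinal organoids that lacked both Rnaseh2b and Trp53 were compared with organoids that lacked Rnaseh2b alone, which asks what the loss of p53 adds to a defect of genome repair. The comparison rests on 6 of the 29 mouse RNA libraries of the series, chosen by their titles: 3 of the genotype H2B/p53dIEC (libraries 1, 2 and 3) and 3 of the genotype H2BdIEC (libraries A, B and C). A further 3 control organoid libraries (A, B and C) are given beside them. Control organoids are titled as wild type and carry the genotype H2B/p53flox/flox, whereas the series' design text lists organoids of H2Bfl/fl. H2B is read as Rnaseh2b and p53 as Trp53. All mice were of the C57BL/6 strain, and no treatment is named for the organoids. The Cre driver, the age of the mice, the number of mice behind each set of 3 libraries and the passage of the cultures are not given in the labels, so each p-value reflects library-to-library variation alone, part of which may be technical.

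RNase H2 is the enzyme that starts the removal of single ribonucleotides that DNA polymerases leave in the genome, and RNASEH2B is a subunit that its complex needs. Unrepaired ribonucleotides lead to DNA breaks, which activate the transcription factor p53. Active p53 switches on genes of cell-cycle arrest, cell death, metabolism and repair, and also the genes that turn p53 off again. Intestinal organoids are cultures of epithelium only, in which stem cells of the crypt base divide under Wnt signals and give rise to absorptive and secretory cells. Damaged DNA that reaches the cytosol can be sensed by cGAS and STING, and interferon signalling then switches on a set of antiviral genes through a promoter motif called the interferon-stimulated response element.

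Total counts were 5774771, 13219451 and 15136734 in H2BdIEC, 13549741 to 15844236 in H2B/p53dIEC and 16803119 to 21386586 in controls. H2BdIEC library A stood apart: it was the shallowest, and its chi-square per degree of freedom against the other libraries of its group was 13.9 and 17.8, against 3.63 between libraries B and C and 1.93 to 2.69 among the H2B/p53dIEC libraries. Sex-linked transcripts differed with the genotype. Y-linked genes summed to 238 to 340 CPM (read counts scaled to library size with edgeR) and Xist lay at 0.659 to 12.1 CPM in H2BdIEC, whereas H2B/p53dIEC held 6.28 to 7.06 and 783 to 982 CPM and controls 5.53 to 5.78 and 643 to 1216 CPM. In the comparisons of H2BdIEC with H2B/p53dIEC and with control, sex and genotype therefore cannot be told apart. H2B/p53dIEC and control organoids had the same sex-linked pattern, so counts against control are given beside most of the gene groups. The titles of H2BdIEC and control libraries share the prefix LW50, which those of H2B/p53dIEC lack and the labels do not explain. Whatever it marks cannot be told apart from genotype where H2B/p53dIEC is compared with either group. Only autosomal genes are described. The 10 epithelial markers summed to 7369 to 7740 CPM in H2B/p53dIEC and 7344 to 8000 CPM in H2BdIEC, while the 29 markers of fibroblasts, immune cells, endothelium, smooth muscle and the enteric nervous system summed to at most 8.50 CPM in any library. Of these 29, 12 were at 0 counts in all H2B/p53dIEC libraries and 14 in all H2BdIEC libraries.

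Among 15048 autosomal genes tested, 2106 were higher and 2318 lower in H2B/p53dIEC than in H2BdIEC at an adjusted p under 0.05, which is 14.0% and 15.4% of the genes tested. These shares are the background for every count of list members in this comparison below. The change was at least 2-fold for 497 of the higher and 311 of the lower genes, and the median log2 fold change over all 15048 was 0.00. In 6910 of the 15048 the libraries of these 2 groups did not overlap, so a lack of overlap between them is common. Against control, H2B/p53dIEC was higher in 2517 (16.7%) and lower in 2537 (16.9%). H2BdIEC against control gave 308 higher (2.05%) and 300 lower (1.99%). That last comparison was the least stable: over all chromosomes it had 637 genes changed, 286 without H2BdIEC library B, 1185 without H2BdIEC library A, 319 without control library B and 167 with the replicate letter as a block. Without H2B/p53dIEC library 1 or library 2, the higher genes numbered 1362 and 1394 and the lower genes 1495 and 1516.

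The deleted genes checked the labels. Trp53 (ENSMUSG00000059552, chromosome 11, 69580359 to 69591873 on GRCm38) read 78.3, 98.7 and 110 CPM in H2BdIEC libraries A, B and C and 9.96, 11.5 and 11.7 CPM in H2B/p53dIEC libraries 1, 2 and 3 (95.7 ± 16.2 against 11.1 ± 0.956, SD, n = 3 each). All 3 H2B/p53dIEC libraries lay far below the rest, and controls read 98.3 to 115 CPM. The difference was -3.13 ± 0.13 on the log2 scale (SE, adjusted p = 1.41e-08). Rnaseh2b (ENSMUSG00000021932, chromosome 14, 62292589 to 62372992) read 18.3, 14.8 and 16.6 CPM in controls, 4.97, 7.05 and 5.47 CPM in H2BdIEC and 2.15, 1.72 and 1.08 CPM in H2B/p53dIEC. Both deletion genotypes were below control, and the 2 genotypes also differed from each other with no overlap (-1.82 ± 0.23, adjusted p = 1.47e-04). Residual Rnaseh2b transcript was thus not equal in the groups that are compared here, and its part in the other differences was not tested. The other subunits of RNase H2 did not pass the test: Rnaseh2a differed by 0.06 ± 0.08 and Rnaseh2c by 0.39 ± 0.22 (adjusted p = 0.57 and 0.21). Among 8 genes of ribonucleotide removal as a whole, 2 were higher and 2 lower, and against control 2 were higher and 1 lower. The deleted gene Rnaseh2b is itself 1 of the 2 lower, and it is the 1 lower against control. The flap nuclease gene Fen1 read 78.1, 99.0 and 110 CPM in H2BdIEC and 153, 154 and 150 CPM in H2B/p53dIEC, with no overlap (0.66 ± 0.10, adjusted p = 7.27e-04), and the DNA ligase gene Lig1 was also higher (0.48 ± 0.08). Top1, which encodes the topoisomerase that cuts DNA at ribonucleotides when RNase H2 is missing, read 241, 206 and 188 CPM in H2BdIEC and 156, 157 and 160 CPM in H2B/p53dIEC (-0.42 ± 0.09, adjusted p = 0.00366).

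Most p53 target genes were lower when Trp53 was deleted as well. Of 53 targets tested in 4 lists, 37 were lower, 3 were higher and 13 did not pass, with a median log2 fold change of -0.56. These are well-known targets of p53, so the lists describe a known pathway rather than an unselected set of genes. Against control, 31 of the same 53 were lower in H2B/p53dIEC and 3 higher (median -0.30). H2BdIEC against control had 13 higher and 2 lower (median 0.18), beside 2.05% and 1.99% of all autosomal genes. These 2 comparisons share libraries with the main one, and each is given with its own values.

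The cell-cycle arrest group held the largest decreases, with 14 of 16 members lower than in H2BdIEC and a median of -1.27. Compared with control, 10 were lower and 1 higher (median -0.57). H2BdIEC itself had 7 members higher than control and 1 lower (median 0.37). Phlda3, which encodes a small protein that holds back the kinase Akt, read 36.9, 55.2 and 67.9 CPM in H2BdIEC and 0.80, 1.54 and 1.37 CPM in H2B/p53dIEC (44.0-fold lower, -5.46 ± 0.26, adjusted p = 7.15e-08). Controls lay between them at 26.4 to 31.8 CPM. Inka2, which encodes an inhibitor of the kinase PAK4, read 12.8, 15.1 and 15.2 CPM in H2BdIEC, 0, 0.123 and 0.216 CPM in H2B/p53dIEC and 2.92 to 3.66 CPM in controls (-6.96 ± 0.32, adjusted p = 3.94e-08). Its H2B/p53dIEC level rests on 5 counts in all, so the size of that fold is imprecise. Cdkn1a, which encodes the CDK inhibitor p21, read 324, 305 and 304 CPM in H2BdIEC and 66.3, 72.4 and 70.4 CPM in H2B/p53dIEC (4.46-fold lower, -2.16 ± 0.10, adjusted p = 3.75e-08). Cdkn1a in controls ranged from 248 to 329 CPM, which overlaps H2BdIEC, and that difference did not pass (0.08, adjusted p = 0.65). Zmat3, an RNA-binding regulator of splicing, stood at 161 to 167 CPM in H2BdIEC, 28.3 to 32.7 CPM in H2B/p53dIEC and 96.3 to 116 CPM in controls (-2.41 ± 0.09). Psrc1, a spindle protein gene, differed by -1.99 ± 0.12, Sesn2, whose product restrains the growth kinase mTORC1, by -1.68 ± 0.12, and the polo-like kinase gene Plk2 by -1.52 ± 0.10. Plk2 in H2B/p53dIEC (8.80 to 10.2 CPM) lay just under its control range (10.4 to 10.8 CPM), a difference that did not pass, and H2BdIEC was the group that stood apart (25.5 to 29.3 CPM). Trp53cor1, the noncoding RNA gene next to Cdkn1a, stood at 1.14 to 1.60 CPM in H2BdIEC and 0.123 to 0.308 CPM in H2B/p53dIEC (-2.76 ± 0.41, adjusted p = 4.30e-04). The members that did not pass were Sesn1 (-0.11) and Plk3 (0.15).

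The promoter of Cdkn1a is shown because it held the one sequence match among these targets. The tetramer of p53 binds a pair of half-sites, and a stretch of 80 bases among the 250 before the gene's start, on GRCm38.p6 from RefSeq (chr17:29090886-29090965, plus strand), holds a match to the pair, here in capitals with the spacer of 12 bases between them in lower case.
Cdkn1a: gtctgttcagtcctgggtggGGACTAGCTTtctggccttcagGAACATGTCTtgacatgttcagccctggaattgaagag
The p53 response element was searched by its name's standard form of 2 half-sites of 10 bases with a spacer of at most 13 bases, in the 250 bases before each autosomal gene start. It was matched in 20 of 31396 promoters (0.0637%). Of the 42 p53 targets in the RefSeq table, Cdkn1a was the only one with a match in that window. The search took exact letters only. The bases directly after the second half-site (tgacatgttc) start with t where the form asks for a or g, so they stay in lower case. The capitals therefore do not say which pair p53 would use. A match is a description of the letters and not a measured binding site, and enhancers and introns were not searched.

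**Figure D1:**
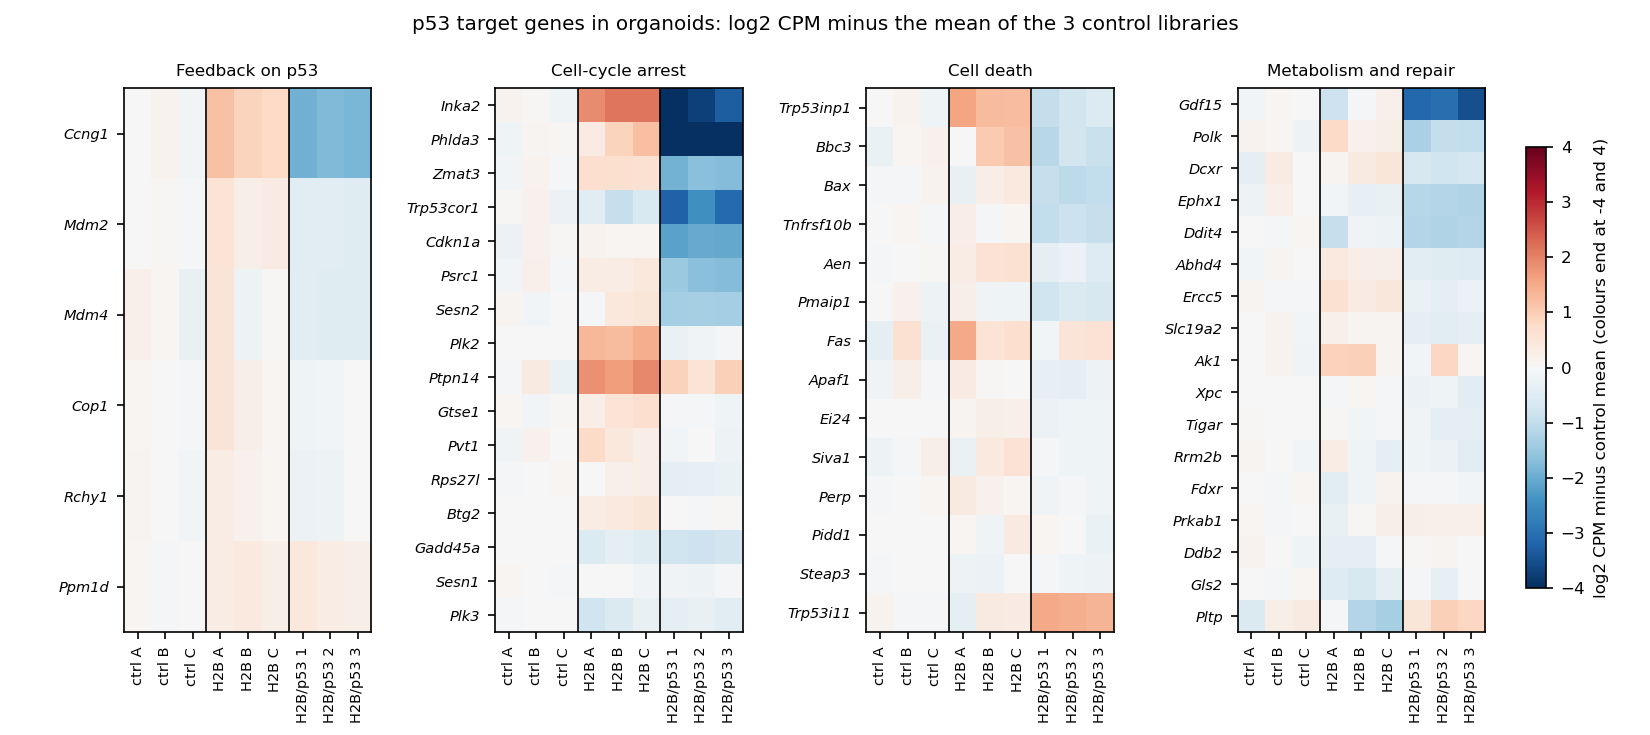
Colours show log2 CPM minus the mean of the 3 control libraries for the 53 tested p53 targets (rows) in 9 organoid libraries (columns: control, H2BdIEC marked H2B, H2B/p53dIEC marked H2B/p53), in 4 panels by role. In the H2B/p53dIEC columns most rows are blue, with Phlda3 and Inka2 darkest.

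Most genes that restrain p53 were lower too. In this feedback group 5 of 6 members were lower than in H2BdIEC (median -0.48). Compared with control, 3 were lower and 1, Ppm1d, was higher (0.32), with a median of -0.30. H2BdIEC itself had 2 members higher than control and 0 lower (median 0.29). Ccng1, which encodes cyclin G1, read 684, 555 and 528 CPM in H2BdIEC, 79.9, 87.9 and 85.1 CPM in H2B/p53dIEC and 279 to 328 CPM in controls (-2.80 ± 0.11, adjusted p = 6.80e-09). Mdm2, which encodes the ubiquitin ligase that degrades p53, read 83.4, 67.4 and 71.2 CPM in H2BdIEC and 42.6, 42.5 and 40.2 CPM in H2B/p53dIEC (-0.81 ± 0.08, adjusted p = 3.21e-05). No library overlapped between the groups for either gene. The p53-binding repressor gene Mdm4 and the ubiquitin ligase genes Rchy1 and Cop1 were lower by smaller amounts (-0.61, -0.32 and -0.35), while the phosphatase gene Ppm1d did not differ detectably (0.00 ± 0.10). Without H2B/p53dIEC library 1 or 2, 3 of the 6 were lower.

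Of 14 cell death genes, 9 were lower and 1 higher (median -0.50). Compared with control, 8 were lower and 1 higher (median -0.25). Trp53inp1, whose product links p53 to autophagy and death, read 104, 83.3 and 81.9 CPM in H2BdIEC, 17.7, 20.9 and 23.4 CPM in H2B/p53dIEC and 30.7 to 38.1 CPM in controls (-2.11 ± 0.13, adjusted p = 4.14e-07). Bbc3, which encodes the BH3-only protein PUMA, read 5.50, 11.4 and 12.6 CPM in H2BdIEC and 2.46, 3.26 and 2.88 CPM in H2B/p53dIEC (-1.86 ± 0.25, adjusted p = 2.36e-04). H2BdIEC library A was the lowest of its group for Bbc3 and still above every H2B/p53dIEC library. Bax, which encodes the pore-forming death effector, differed by -1.17 ± 0.14, the TRAIL receptor gene Tnfrsf10b by -1.0 ± 0.11, the exonuclease gene Aen by -0.88 ± 0.10, and Pmaip1, which encodes NOXA, by -0.64 ± 0.12. Trp53i11 moved the other way, from 16.9 to 28.3 CPM in H2BdIEC to 56.4 to 63.7 CPM in H2B/p53dIEC (1.26 ± 0.14, adjusted p = 6.00e-05), and was also higher than in control (1.44).

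Of 17 p53 targets of metabolism, stress and repair, 9 were lower and 2 higher (median -0.34). Gdf15, which encodes a secreted stress cytokine, read 23.8, 39.5 and 48.0 CPM in H2BdIEC and 4.67, 5.11 and 3.53 CPM in H2B/p53dIEC (-3.09 ± 0.22, adjusted p = 2.20e-06). Controls held 39.2 to 44.2 CPM, inside the H2BdIEC range. Polk, which encodes a translesion DNA polymerase, differed by -1.47 ± 0.17, the epoxide hydrolase gene Ephx1 by -0.93 ± 0.10 and the excision nuclease gene Ercc5 by -0.76 ± 0.10. The members higher in H2B/p53dIEC than in H2BdIEC were the lipid transfer gene Pltp (1.88 ± 0.38) and the glutaminase gene Gls2, which was chosen after its values were seen (0.39 ± 0.12, adjusted p = 0.034). Compared with control, 10 of the 17 were lower and 0 higher (median -0.29), so neither Pltp nor Gls2 was called higher there.

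Most interferon-stimulated genes were higher in H2B/p53dIEC organoids. Of 38 genes on the list 33 passed the filter on low counts, and 28 of these were higher, 0 lower and 5 did not pass, with a median log2 fold change of 1.54. Beside these, 14.0% of all autosomal genes were higher. Against control, 22 of the 33 were higher and 0 lower (median 1.05). In H2BdIEC against control 0 of the 33 passed the test and the median was -0.35. A member near silent in H2BdIEC and control could pass the filter only through the H2B/p53dIEC libraries. The counts and medians of this list are therefore not independent of the filter.

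Rsad2, which encodes the antiviral enzyme viperin, read 1.07, 1.14 and 0.395 CPM in H2BdIEC, 10.9, 11.5 and 11.5 CPM in H2B/p53dIEC and 1.08, 1.34 and 1.37 CPM in controls (14.0-fold higher than H2BdIEC, 3.81 ± 0.25, adjusted p = 7.94e-07). Xaf1, whose product promotes apoptosis, read 1.78, 1.44 and 0.395 CPM in H2BdIEC and 18.2, 16.4 and 17.3 CPM in H2B/p53dIEC (4.04 ± 0.34, adjusted p = 5.71e-06). For both genes the H2B/p53dIEC libraries lay close together and well above all 6 others. Cxcl10, a chemokine gene, stood at 0.329 to 0.379 CPM in H2BdIEC and 4.54 to 4.93 CPM in H2B/p53dIEC (3.70 ± 0.29). Oas3, which encodes a sensor of double-stranded RNA that activates RNase L, stood at 0.461 to 0.710 against 5.04 to 5.67 CPM (3.21 ± 0.27). Isg15, which encodes a ubiquitin-like modifier and was chosen after its values were seen, read 1.07, 1.14 and 0.988 CPM in H2BdIEC and 10.1, 10.5 and 9.15 CPM in H2B/p53dIEC (3.22 ± 0.27). Ifit1 and Oasl2 started from higher levels. Ifit1, whose product binds foreign RNA caps, read 9.94, 5.61 and 3.29 CPM in H2BdIEC and 17.7, 16.7 and 18.1 CPM in H2B/p53dIEC (1.64 ± 0.27, adjusted p = 1.05e-03). Oasl2, a gene of the oligoadenylate synthetase family, read 14.6, 5.38 and 3.03 CPM in H2BdIEC and 29.1, 30.7 and 29.8 CPM in H2B/p53dIEC (2.23 ± 0.44). Library A was the highest of the H2BdIEC group for both. Its own mean over the list (3.14 as log2 CPM) was above those of libraries B and C (2.51 and 2.16), while the H2B/p53dIEC libraries held 4.14 to 4.17 and the controls 2.52 to 3.07. Without library A, 33 of 33 were higher with a median of 1.804.

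The 5 members that did not pass included Parp9 (0.21), Bst2 (0.17), Ifih1 (0.20) and Ddx58 (0.23), the last 2 being RNA sensor genes. These 4 were named after their values were seen. Oas1a and Oas1g, and Ifit3 and Ifit3b, are near-identical copies between which reads could be split, so their separate values are uncertain.

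Promoters of several of the leading genes hold letters that match the core of the interferon-stimulated response element. That core, GAAA followed by any 2 bases and another GAAA, was searched on both strands in the 250 bases before each start. It was found in 935 of 31396 autosomal promoters (2.98%) and for 894 of 25748 gene symbols (3.47%). Of the 33 tested interferon-stimulated genes, 25 were in the RefSeq promoter table and 11 of those 25 held the core. The median log2 fold change was 2.28 for the 11 and 0.94 for the other 14, and 10 and 12 of them were higher. Shown are 80 bases upstream of the start for the 4 genes with the core that had the largest increases, on the gene's own (minus) strand, with the core in capitals: Rsad2 at chr12:26456513-26456592, Cxcl10 at chr5:92349043-92349122, Isg15 at chr4:156200837-156200916 and Oas3 at chr5:120777675-120777754.
Rsad2: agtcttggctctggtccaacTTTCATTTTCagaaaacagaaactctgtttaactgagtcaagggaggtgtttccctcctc
Cxcl10: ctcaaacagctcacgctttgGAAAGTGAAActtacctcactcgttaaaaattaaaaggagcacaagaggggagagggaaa
Isg15: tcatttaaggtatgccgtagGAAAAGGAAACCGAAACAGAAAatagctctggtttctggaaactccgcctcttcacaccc
Oas3: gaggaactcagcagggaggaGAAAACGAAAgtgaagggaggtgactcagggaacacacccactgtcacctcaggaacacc
As for Cdkn1a, a match describes letters and is not a measured site. In Isg15 the capitals cover 3 overlapping matches. Xaf1, with the largest increase on the list, has no match in its window, which says only that these letters are absent there.

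**Figure D2:**
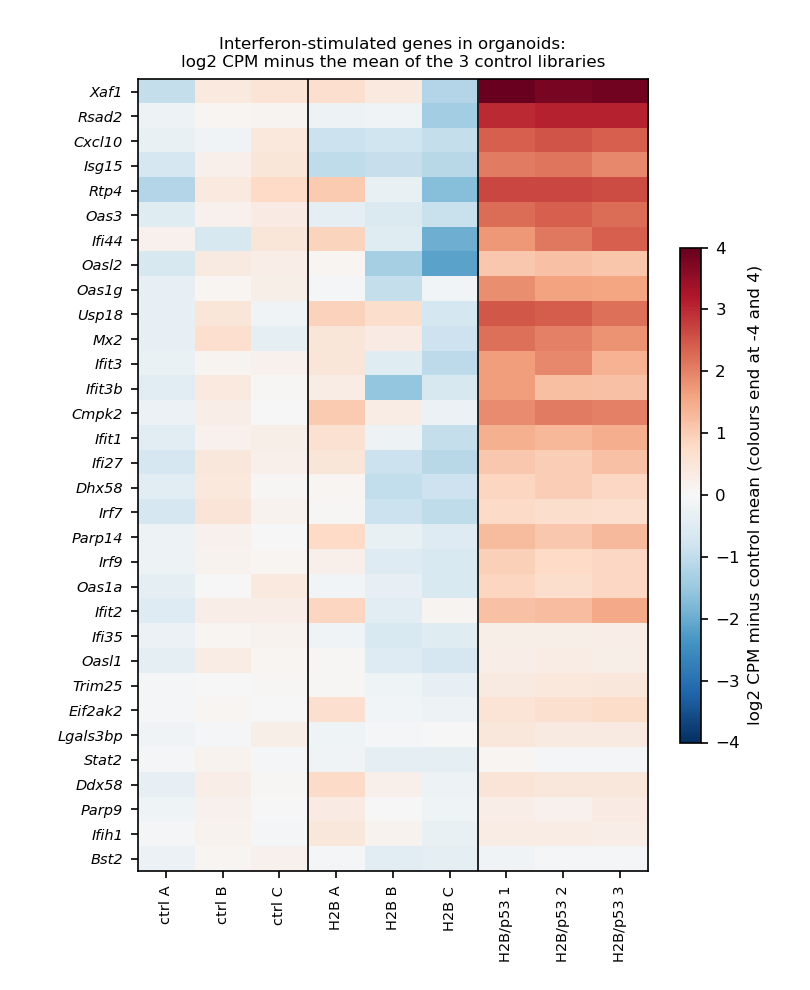
Colours show log2 CPM minus the mean of the 3 control libraries for 32 of the 33 tested interferon-stimulated genes (rows, ordered by the difference between H2B/p53dIEC and H2BdIEC) in 9 organoid libraries (columns). The 3 H2B/p53dIEC columns are red from Xaf1 down to about Ifit2, and H2BdIEC library C has the lowest mean (2.16 as log2 CPM).

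Genes of antigen presentation were mostly higher as well. Of 10 MHC class I genes 7 were higher and 0 lower (median 0.50). Psmb8, an immunoproteasome subunit gene, read 3.20, 3.03 and 2.64 CPM in H2BdIEC and 11.2, 12.1 and 11.5 CPM in H2B/p53dIEC (2.0 ± 0.16, adjusted p = 4.10e-06), while controls lay between at 5.34 to 7.24 CPM. The peptide transporter gene Tap2 differed by 0.81 ± 0.12, the immunoproteasome gene Psmb9 by 1.19 ± 0.18 and the class I heavy chain gene H2-D1 by 0.46 ± 0.08. Against control, 4 of the 10 were higher (median 0.25). Of 5 class II genes that passed the filter, 4 were higher (median 1.67), and 2 when the filter asked for 1 CPM in 3 libraries. Against control 3 of the 5 were higher (median 1.08). Cd74, the class II invariant chain gene, read 0, 0 and 0.132 CPM in H2BdIEC and 1.78, 2.22 and 1.95 CPM in H2B/p53dIEC, so its fold is poorly bounded. It would not have passed the filter on low counts without the H2B/p53dIEC libraries, so its call is not independent of the filter. H2-Ab1 stood at 6.92 to 7.58 CPM in H2BdIEC and 14.2 to 16.1 CPM in H2B/p53dIEC (1.03 ± 0.14), but controls (13.6 to 18.1 CPM) overlapped the latter.

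The sensors of cytosolic nucleic acids did not move as a group: 3 of 7 were higher and 3 lower, and against control 4 were higher and 2 lower. Cgas, which encodes the DNA sensor, read 29.3, 27.5 and 29.5 CPM in H2BdIEC and 38.3, 33.7 and 39.0 CPM in H2B/p53dIEC (0.36 ± 0.09, adjusted p = 8.82e-03). Tmem173, which encodes STING, stood at 1.78 to 2.20 against 4.61 to 5.97 CPM (1.33 ± 0.18), and Adar, which encodes an RNA-editing enzyme, at 60.3 to 63.4 against 95.2 to 101 CPM (0.67 ± 0.07). Lower were Mavs, the adaptor of the RNA sensors (-0.34 ± 0.06), and, chosen after their values were seen, the transcription factor gene Irf3 (-0.32) and the nuclease gene Samhd1 (-0.24).

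Most of the S phase genes tested, many of them genes of DNA replication, were higher in H2B/p53dIEC by modest amounts. Of 30 S phase genes 19 were higher and 1 lower, with a median of 0.40. Clspn, which encodes the replication checkpoint adaptor claspin, read 37.5, 36.4 and 37.5 CPM in H2BdIEC and 63.5, 60.3 and 62.2 CPM in H2B/p53dIEC (0.74 ± 0.08, adjusted p = 7.28e-05). The ribonucleotide reductase gene Rrm2 differed by 0.48 ± 0.06, Dtl, whose product targets replication proteins for degradation, by 0.47 ± 0.07 and the helicase gene Mcm4 by 0.47 ± 0.07. Against control, 22 of the 30 were higher and 0 lower (median 0.39). The single lower member, named after its value was seen, was the cyclin gene Ccne2 (-0.38). Of 32 mitotic genes 14 were higher and 1 lower (median 0.19), led by the kinesin gene Kif20a (0.59 ± 0.07) and the centromere gene Cenpa (0.45 ± 0.07). That count was less firm: it was 8 without H2BdIEC library B, 9 without any 1 of the 3 H2B/p53dIEC libraries, and 21 without H2BdIEC library A. Against control 13 of the 32 were higher and 1 lower (median 0.21). Of 29 genes of DNA damage signalling and repair, 11 were higher and 2 lower (median 0.26), among them the single-strand binding gene Rpa2 (0.63 ± 0.08), Palb2, a partner of BRCA2 (0.63 ± 0.11), the Fanconi anemia gene Fanca (0.49 ± 0.08) and the exonuclease gene Exo1 (0.55 ± 0.10). Without H2B/p53dIEC library 2 the count was 7. Against control 15 of the 29 were higher and 2 lower (median 0.38).

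Among CDK inhibitors other than p21 and D cyclins, 2 of 9 were higher and 4 lower, and against control 3 were higher and 4 lower. Cdkn2a, which encodes p16 and p19ARF, read 0, 0.152 and 0.329 CPM in H2BdIEC, 2.28, 2.28 and 2.09 CPM in H2B/p53dIEC and 0 to 0.179 CPM in controls (3.39 ± 0.49, adjusted p = 3.56e-04). The gene was nearly silent in 6 libraries and low but measurable in the other 3. It passed the filter on low counts only through those 3 libraries, so its call is not independent of the filter. Cdkn2b, its neighbour, which encodes p15, moved the other way, from 16.1 to 19.5 CPM in H2BdIEC to 8.12 to 9.85 CPM in H2B/p53dIEC (-0.99 ± 0.14). The cyclin genes Ccnd2 and Ccnd3 were lower (-0.78 ± 0.07 and -0.43 ± 0.09).

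Most crypt base and Wnt target genes were higher in H2B/p53dIEC. Of 20 stem cell markers 15 were higher and 0 lower (median 0.42), and of 21 Wnt target genes 13 were higher and 0 lower (median 0.55). Several genes stand on both lists, and over the 32 distinct genes 21 were higher. Against control 14 of 20 and 13 of 21 were higher, with medians of 0.46 and 0.35. In bulk RNA, a change in the number of cells of a type and a change in the RNA each of them holds cannot be told apart, here and in the groups that follow.

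Olfm4, a marker of crypt base stem cells, read 283, 296 and 297 CPM in H2BdIEC, 861, 866 and 912 CPM in H2B/p53dIEC and 357 to 494 CPM in controls (3.01-fold higher, 1.59 ± 0.10, adjusted p = 6.41e-07). Ascl2, a Wnt-driven stem cell transcription factor gene, read 6.75, 9.62 and 10.3 CPM in H2BdIEC and 27.1, 24.3 and 24.6 CPM in H2B/p53dIEC (1.45 ± 0.15, adjusted p = 2.85e-05). Both genes were lower in H2BdIEC than in controls (-0.56 and -0.64) and higher than controls in H2B/p53dIEC (1.03 and 0.82). Axin2, a feedback inhibitor of Wnt signalling, read 98.0, 132 and 139 CPM in H2BdIEC and 239, 232 and 220 CPM in H2B/p53dIEC (0.90 ± 0.10, adjusted p = 8.17e-05). The receptor kinase gene Ephb3 differed by 1.13 ± 0.10, the RNA-binding protein gene Msi1 by 1.05 ± 0.09, Cdca7 by 0.76 ± 0.08 and the transcription factor gene Prox1 by 1.60 ± 0.17. Lgr5, the receptor that defines crypt base stem cells, was chosen after its values were seen. It stood at 360, 384 and 330 CPM in H2BdIEC and 427, 422 and 427 CPM in H2B/p53dIEC, a difference of 0.25 ± 0.09 that did not pass (adjusted p = 0.062), as against control (0.22, adjusted p = 0.082).

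Notch ligands and regulators of secretory fate were mostly higher, with 7 of 9 higher and 1 lower (median 0.70). Against control 6 were higher and 1 lower (median 0.42). Neurog3, which commits cells to the enteroendocrine fate, read 11.5, 18.3 and 15.2 CPM in H2BdIEC, 43.1, 42.2 and 47.8 CPM in H2B/p53dIEC and 15.7 to 16.5 CPM in controls (1.52 ± 0.13, adjusted p = 4.94e-06). The ligand genes Dll1 and Dll4 were higher (0.85 ± 0.09 and 0.70 ± 0.12), and the ligand gene Jag1 was lower, from 30.7 to 35.9 CPM to 16.1 to 16.3 CPM (-1.01 ± 0.09).

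Of 17 enteroendocrine markers 5 were lower and 2 higher (median -0.31), beside 15.4% and 14.0% of all autosomal genes. The 2 higher were Neurog3 itself and Pax4, a transcription factor gene of the same lineage (1.48, adjusted p = 0.00797), and the lower ones were genes of hormones and granule proteins. Against control the balance of calls was the other way, with 4 higher and 2 lower (median -0.09). H2BdIEC against control had 5 higher and 0 lower (median 0.22). Gcg, which encodes proglucagon, read 197, 156 and 144 CPM in H2BdIEC, 45.0, 46.7 and 43.1 CPM in H2B/p53dIEC and 105 to 133 CPM in controls (3.66-fold lower, -1.87 ± 0.12, adjusted p = 7.66e-07). Chga, which encodes chromogranin A, differed by -0.85 ± 0.11 and the hormone gene Gip by -0.81 ± 0.10. Gcg and Chga were also lower than in control (-1.36 and -0.31), whereas Gip did not pass there (-0.09, adjusted p = 0.53). Pax4 was chosen after its values were seen. Without H2BdIEC library A, 8 of the 17 were lower.

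Of 12 Paneth cell genes tested, 4 were higher and 2 lower (median 0.17), beside 14.0% and 15.4% of all autosomal genes. Against control 4 were higher and 5 lower (median -0.21), and in H2BdIEC against control 0 were higher and 4 lower. Lyz1, which encodes lysozyme, read 183, 210 and 222 CPM in H2BdIEC, 636, 667 and 655 CPM in H2B/p53dIEC and 422 to 467 CPM in controls (3.18-fold higher, 1.67 ± 0.08, adjusted p = 5.81e-08). Pla2g2a, a gene of the secreted phospholipase family, read 0.178, 0.455 and 0.198 CPM in H2BdIEC and 10.7, 8.68 and 10.6 CPM in H2B/p53dIEC (5.05 ± 0.28). Whether this transcript gives a working enzyme in the C57BL/6 strain was not tested. Its gene (chromosome 4, 138831857 to 138835186, plus strand) lies inside the span of Pla2g5 (138799244 to 138863482, minus strand), another phospholipase gene, which read 5.86, 7.95 and 7.12 against 39.0, 44.0 and 40 CPM (2.52 ± 0.14, adjusted p = 2.53e-07). The labels do not say whether counting used the strand, so reads of the overlapping pair cannot be told apart. The antimicrobial ribonuclease gene Ang4 went down, from 74.7 to 86.4 CPM to 32.0 to 35.2 CPM (-1.23 ± 0.10). The Wnt ligand gene Wnt3 was higher (1.13 ± 0.14), and the defensin gene Defa24, one of a family of near-identical copies and therefore uncertain, was lower (-0.78 ± 0.11; chosen after its values were seen).

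Other mature cell genes gave less firm counts. Of 14 goblet cell markers 7 were higher and 1 lower (median 0.29), with 2 higher without H2B/p53dIEC library 1 and 4 without H2BdIEC library B. Against control 4 goblet markers were higher and 2 lower (median 0.19). The kallikrein gene Klk1 was higher (0.84 ± 0.15) and the secreted peptide gene Spink4 lower (-0.55 ± 0.11). Of 20 enterocyte markers 5 were lower and 2 higher (median -0.26), beside 15.4% and 14.0% of all autosomal genes. Against control the balance of calls turned, with 6 higher and 1 lower (median -0.08). The sugar transporter gene Slc5a1 was lower (-0.72 ± 0.17), while the brush border phosphatase gene Alpi and the fructose transporter gene Slc2a5 were higher (0.69 ± 0.12 and 0.58 ± 0.14). These 3 genes had the same direction against control (-0.63, 0.60 and 1.15) and passed there as well. The 5 lower enterocyte genes became 3 without H2BdIEC library A, 2 without H2B/p53dIEC library 1, 1 without library 2 or 3, 3 with upper-quartile scaling and 11 with no filter on low counts.

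**Figure D3:**
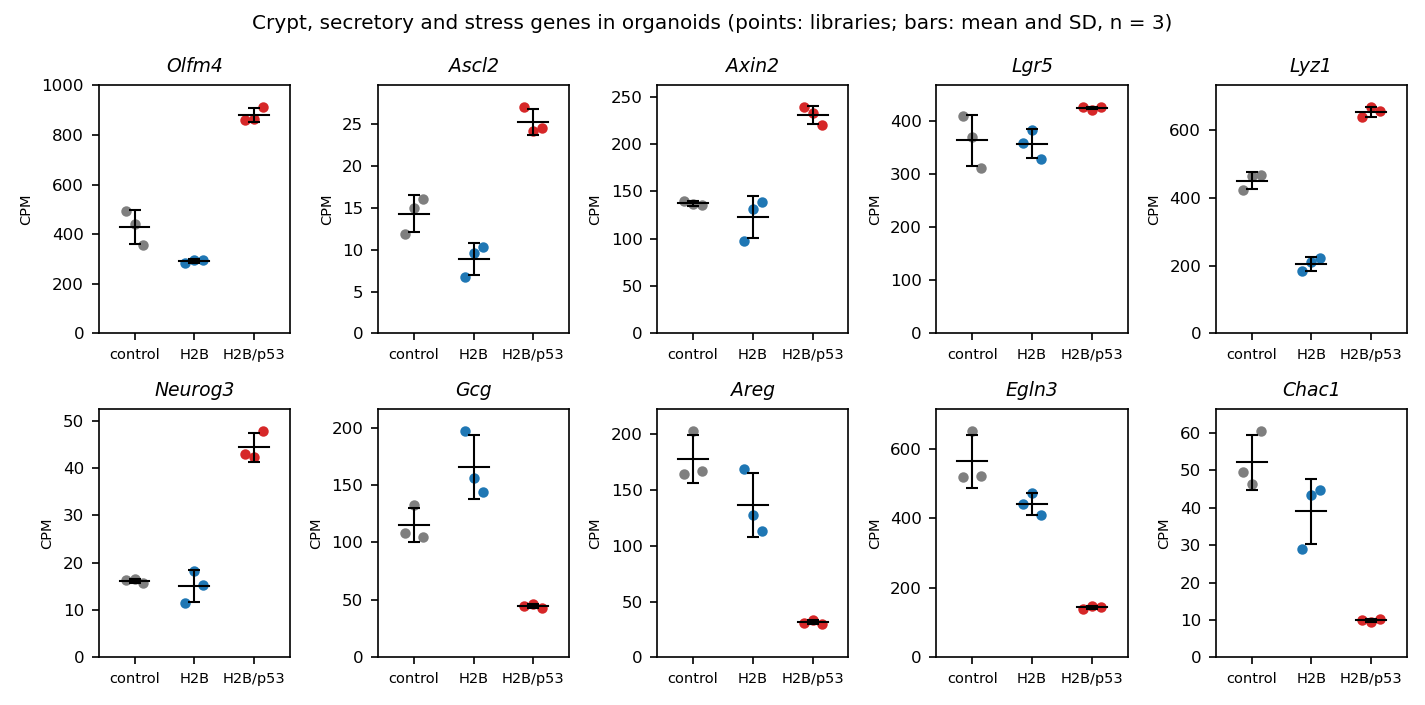
CPM (vertical axes, each from 0) of 10 genes of crypt, secretory and stress groups in control, H2BdIEC (H2B) and H2B/p53dIEC (H2B/p53) organoids, with points for the 3 libraries and bars for the mean and SD. Olfm4, Ascl2, Axin2, Lyz1 and Neurog3 are highest and Gcg, Areg, Egln3 and Chac1 lowest in H2B/p53dIEC, with no overlap, while Lgr5 differs little.

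Among genes of the EGF growth factor family, several ligand genes were lower. Of 11 ligands, receptors and regulators tested, 6 were lower and 1 higher (median -0.25), and against control 5 were lower and 1 higher (median -0.13). Areg, which encodes amphiregulin, read 169, 128 and 113 CPM in H2BdIEC, 31.2, 33.2 and 29.9 CPM in H2B/p53dIEC and 164 to 203 CPM in controls (4.31-fold lower, -2.11 ± 0.14, adjusted p = 7.94e-07). Ereg, which encodes epiregulin, read 6.04, 3.33 and 3.56 CPM in H2BdIEC and 0.554, 0.431 and 0.432 CPM in H2B/p53dIEC (-3.06 ± 0.40, adjusted p = 1.78e-04). The ligand genes Btc and Tgfa were lower as well (-0.76 ± 0.11 and -0.34 ± 0.08). Among immediate early genes, which respond to growth factor signals, 5 of 10 were lower and 0 higher (median -0.33), led by Egr1 (-0.56 ± 0.08), Zfp36 (-0.51 ± 0.07) and Junb (-0.85 ± 0.14). Against control 6 of these 10 were lower (median -0.59).

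Hypoxia and glycolysis genes were lower almost throughout, 11 of 13 with 0 higher (median -0.65). Egln3, which encodes a prolyl hydroxylase that marks the hypoxia factor HIF for degradation, read 439, 473 and 410 CPM in H2BdIEC, 139, 148 and 144 CPM in H2B/p53dIEC and 519 to 650 CPM in controls (3.07-fold lower, -1.62 ± 0.09, adjusted p = 3.52e-07). Ndrg1, a stress-response gene, read 1096, 1254 and 1134 CPM in H2BdIEC and 553, 557 and 558 CPM in H2B/p53dIEC (-1.06 ± 0.08). The hypoxia-induced genes Ankrd37 and Bnip3 differed by -1.47 ± 0.10 and -1.39 ± 0.11. Against control all 13 were lower (median -1.02), and in H2BdIEC against control 5 were (median -0.30).

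The ATF4 and unfolded protein group had 12 of 18 members lower and 0 higher (median -0.37). Chac1, a glutathione-degrading enzyme gene induced by ATF4, read 29.1, 43.4 and 44.8 CPM in H2BdIEC, 10.1, 9.42 and 10.2 CPM in H2B/p53dIEC and 46.4 to 60.5 CPM in controls (4.03-fold lower, -2.01 ± 0.16, adjusted p = 3.38e-06). The stress transcription factor genes Atf3 and Ddit3 differed by -1.31 ± 0.13 and -1.07 ± 0.12, and the mitochondrial folate enzyme gene Mthfd2 by -0.86 ± 0.10. Against control 12 of 18 were lower (median -0.56). Targets of the oxidative stress factor NRF2 had 9 of 18 lower and 0 higher (median -0.28), among them the heme oxygenase gene Hmox1 (-0.92 ± 0.11), the carbonyl reductase gene Cbr3 (-0.98 ± 0.15) and the quinone reductase gene Nqo1 (-0.56 ± 0.12). The count was 6 without H2B/p53dIEC library 1 or 2. Against control 8 of the 18 were lower and 1 higher (median -0.38).

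Most genes of biosynthesis tested did not pass, and those that did were higher by small amounts. Of 23 genes of cholesterol and fatty acid synthesis, 9 were higher and 0 lower (median 0.18), with the fatty acid synthase gene Fasn at 0.60 ± 0.09. Against control 11 of the 23 were higher and 0 lower (median 0.24). Of 17 ribosome biogenesis genes 8 were higher and 0 lower (median 0.24), with Polr1a, the large subunit of RNA polymerase I, at 0.37 ± 0.07. The ribosome count was 4 without H2B/p53dIEC library 1 or 2, 5 without its library 3 or H2BdIEC library B, and 10 without H2BdIEC library A. Against control 11 of the 17 were higher and 0 lower (median 0.25).

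**Figure D4:**
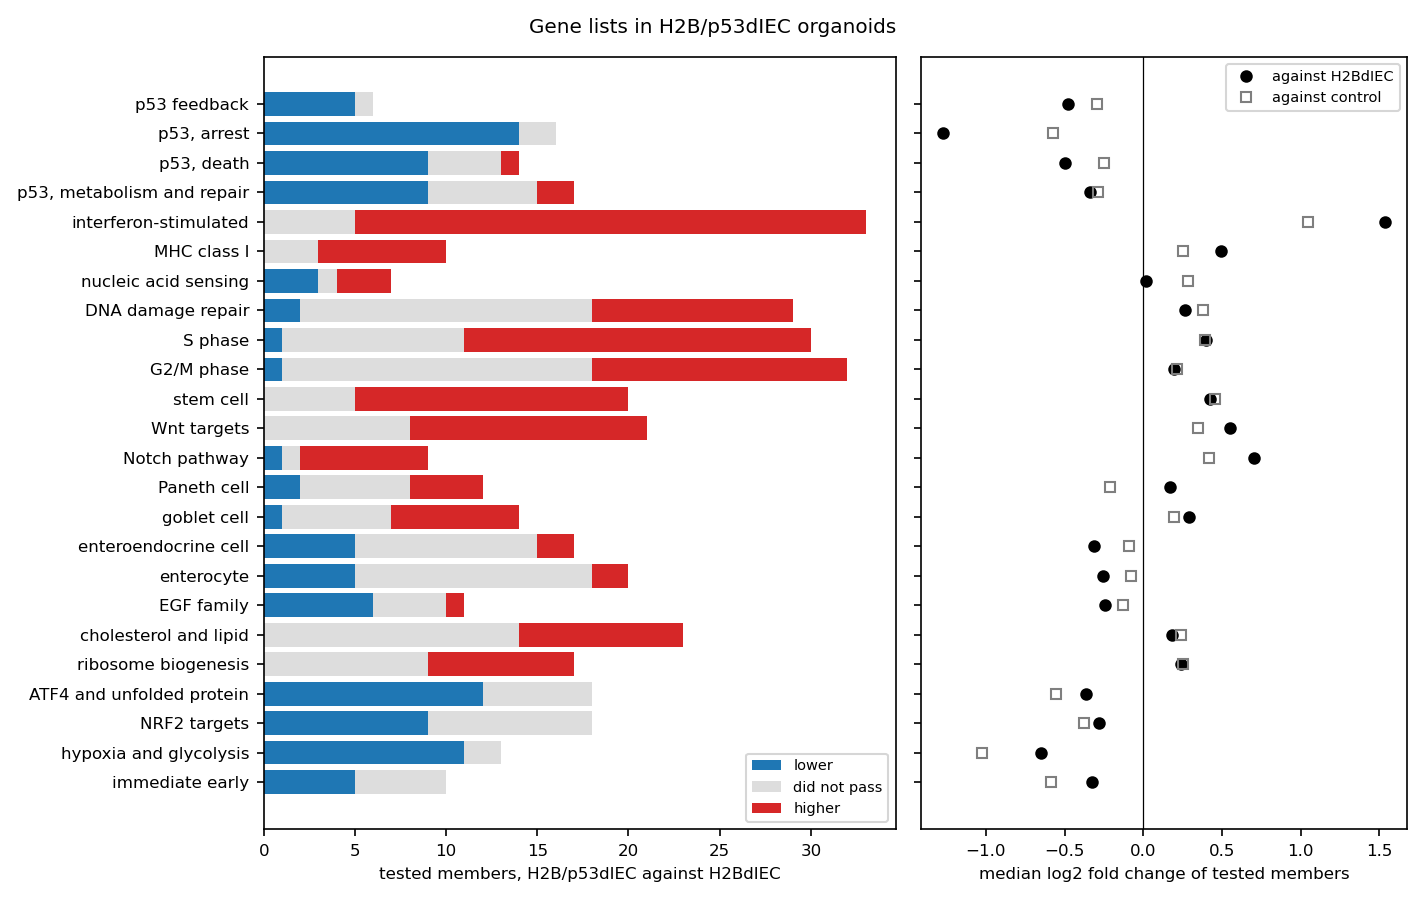
Left, the number of tested members of 24 gene lists that were lower (blue), higher (red) or did not pass the test (grey) in H2B/p53dIEC against H2BdIEC organoids. Right, the median log2 fold change of the same members against H2BdIEC (filled circles) and against control (open squares), from -1.27 for p53 arrest genes to 1.54 for interferon-stimulated genes in the first.

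Single genes outside these lists also stood out by the rule for named genes, which took the 12 largest changes in each direction among well-expressed genes. Afp, which encodes alpha-fetoprotein (ENSMUSG00000054932, chromosome 5), read 105, 97.6 and 112 CPM in H2BdIEC, 9.23, 10.3 and 8.29 CPM in H2B/p53dIEC and 42.9 to 51.9 CPM in controls (11.3-fold lower, -3.49 ± 0.11, adjusted p = 1.87e-09). The order was H2BdIEC above control above H2B/p53dIEC, and controls overlapped neither genotype. The naming rule itself required that H2BdIEC and H2B/p53dIEC did not overlap. Nrn1, which encodes neuritin, and Neu3, which encodes a membrane sialidase, were also lower (-2.26 ± 0.16 and -2.01 ± 0.17), and for both H2BdIEC did not differ from control by the test (-0.15 and -0.21). Ifitm3, which encodes a membrane protein that blocks virus entry, read 21.1, 32.3 and 32.6 CPM in H2BdIEC and 124, 113 and 99.9 CPM in H2B/p53dIEC (3.81-fold higher, 1.93 ± 0.13, adjusted p = 1.00e-06). The Ras effector gene Rassf5 (2.13 ± 0.15), the kinase-related gene Fam20a (1.92 ± 0.14), the serine protease gene Prss32 (1.88 ± 0.15), Ccdc3 (1.85 ± 0.15), the fibroblast growth factor receptor gene Fgfr4 (1.78 ± 0.17), the myosin gene Myo5a (1.77 ± 0.14) and the chemokine gene Ccl9 (1.75 ± 0.19) were higher too. All of these were also higher than in control, by 0.85 (Prss32) to 1.97 (Fgfr4). The other genes with the largest changes have been described above in their groups.

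Along the genome, the medians of well-expressed genes by autosome ran from -0.09 on chromosome 13 to 0.11 on chromosome 19. The autosomes were divided into 405 windows of 25 consecutive well-expressed genes, a division made after the data were seen. Of these, 5 had a median under -0.2 both against H2BdIEC and against control, and 3 had one over 0.2 in both. Of the 5 low windows, 3 were consecutive at the proximal end of chromosome 4. The first 3 windows of chromosome 4, from 3549041 to 36004179 on GRCm38, had medians of -0.23, -0.39 and -0.35 against H2BdIEC and -0.22, -0.25 and -0.29 against control. Of the 75 genes, 39 were lower and 2 higher. In each H2B/p53dIEC library the 3 windows lay between -0.20 and -0.31 relative to the control mean, while H2BdIEC library C held -0.01 to 0.03 and library A 0.11 to 0.38. The next window, starting at 39895208, had a median of 0.00 against H2BdIEC and -0.06 against control. The other low windows lay on chromosome 1 (-0.21 and -0.24, from 120113280 to 130744622) and chromosome 6 (-0.23 and -0.23, from 125349362 to 129542346), so the first window of chromosome 4 did not lie beyond those elsewhere, while the next 2 were lower than any window outside this stretch in both comparisons. The high windows lay on chromosome 11 (0.22 and 0.21) and chromosome 19 (0.24 and 0.22, and 0.30 and 0.25). In the last of these, from 45750259 to 47537507, 14 of 25 genes were higher and 0 lower. Trp53inp1 (chromosome 4, 11156431 to 11174379), described above, lies in the first window of chromosome 4.

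**Figure D5:**
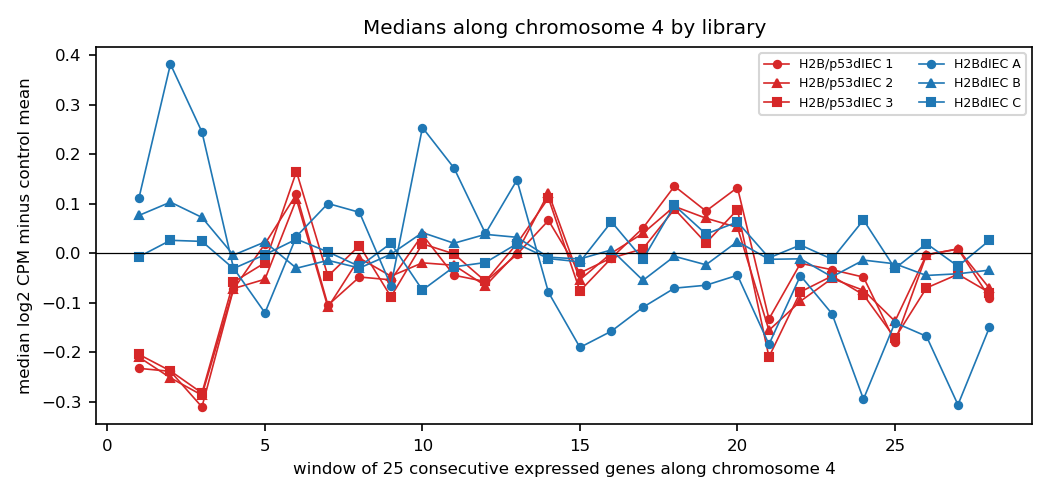
Median log2 CPM minus the control mean (vertical axis) in successive windows of 25 well-expressed genes along chromosome 4 (horizontal axis), with a line per library. The 3 H2B/p53dIEC libraries (red) lie between -0.20 and -0.31 in windows 1 to 3 and near the H2BdIEC libraries (blue) afterwards, and H2BdIEC library A swings widest.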

How the data were processed

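RNA was measured in 9 organoid libraries of the 29 in the series, made with a stranded mRNA kit per the labels. The authors' deposited values are raw read counts per Ensembl gene, whole numbers with no normalization. The submitters' processing notes name GRCm38, cutadapt (1.5 and 1.9), Trimmomatic 0.36, TopHat2 2.0.14 and HTSeq. The settings of these tools are not given in the sources used here. GENCODE M21 annotation (GRCm38) supplied symbols and coordinates for 52403 of 52550 identifiers, and the rest held at most 0.00848% of counts. Promoter sequences are RefSeq's on GRCm38.p6.

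Counts of the 9 libraries were fitted with edgeR 4.0.16 in R 4.3.3, using filterByExpr, TMM scaling, the robust quasi-likelihood F test and 1 coefficient per group. Genes with a Benjamini-Hochberg adjusted p under 0.05, across the 15701 tested, were called, and that test gives every adjusted p printed. The SE is the log2 fold change over the square root of F, and ± after a CPM mean is the SD. CPM uses the TMM factors, and log2 CPM a prior count of 2. Depth limits precision most in H2BdIEC library A. The scripts were tested on simulated data, and matplotlib 3.10.9 drew the figures.

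Genes were named by a rule: Rnaseh2b and Trp53, the 12 largest increases and 12 largest decreases among called protein-coding autosomal genes with mean log2 CPM of at least 3 and no overlap between the libraries compared, and for each list up to 4 members with the smallest p (8 for p53 lists). Results of some genes that the rule covers are not reported here. Names outside it were chosen after their values were seen. The 41 lists and the rule were chosen with earlier results of these data known, so list counts are descriptions, with no test of a list as a whole. Alternatives were DESeq2 1.42.0 (size factors, and its test), upper-quartile factors, other filters, robust=FALSE, the 6 libraries alone, equal depth, and each library left out. The genotypes compared share no replicate label, as one is lettered and the other numbered. No pair of libraries within a group held identical counts.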

Additional observations from a re-analysis of the deposited data

How the results depend on the processing

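No called difference among the 165 genes tracked reversed under any alternative run, and 13 of the 151 called lost the call under at least 1 of them, among them Mdm4, Rchy1, Cop1, Vil1 and Krt20. The 4601 genes (all chromosomes) changed against H2BdIEC became 3576 to 5165 under other scalings, filters and tools, and 2982 to 5483 with 1 library left out, lowest without H2B/p53dIEC library 1 and 3039 without library 2, and 0 of the 4601 changed sign. Autosomal genes higher ranged from 1362 to 2513 and lower from 1495 to 2712 with 1 library left out. No paired analysis of that comparison was possible because its groups share no replicate label. The letters A to C do recur in H2BdIEC and control, where the replicate block gave 167 genes changed, against 637 without the block, 242 with only those 6 libraries, 384 at equal depth, 1494 with no filter on low counts, and 286 to 1185 with 1 library left out. List counts with 1 library left out ranged from 3 to 5 (p53 feedback, lower), 7 to 16 (damage repair, higher), 8 to 21 (mitosis, higher), 2 to 6 (goblet, higher), 5 to 8 (enteroendocrine, lower), 1 to 5 (enterocyte, lower) and 4 to 10 (ribosome biogenesis, higher). With no filter on low counts enteroendocrine genes lower were 8 and enterocyte genes lower 11, and the latter were 3 with upper-quartile scaling. MHC class II genes higher were 2 with at least 1 CPM in 3 libraries or at equal depth. The cause of these shifts was not tested. The first 75 genes of chromosome 4, added after the data were seen, kept a median between -0.34 and -0.26 under all settings run. Medians of single autosomes moved by more than the spread between libraries, if only slightly, under these settings. Counting all genes tested gave -0.0014 for chromosome 2, 0.027 for 5, -0.011 for 6, 0.027 for 9 and -0.038 for 10. Upper-quartile scaling gave 0.016 for chromosome 2, 0.031 for 5, -0.0032 for 6, 0.032 for 9, -0.026 for 10, 0.097 for 11 and 0.019 for 15. At least 1 CPM in 3 libraries gave -0.0078 for chromosome 2 and -0.050 for 10. For chromosome 10 the DESeq2 test gave -0.066, the 6 libraries alone -0.054 and equal depth -0.074. With 1 library left out, chromosome 5 ranged from -0.0095 to 0.016 and chromosome 10 from -0.072 to -0.058.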

Other observations

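Of 6 genes of the distal small intestine 4 were lower in H2B/p53dIEC than in H2BdIEC, and for 3 of these H2BdIEC stood above both other groups. Fgf15, the hormone gene of the distal small intestine that represses bile acid synthesis, read 6.39, 3.11 and 4.61 CPM in H2BdIEC, 0.431, 0.308 and 0.432 CPM in H2B/p53dIEC and 0.300 to 0.432 CPM in controls (-3.49 ± 0.34 between the deletion genotypes, adjusted p = 1.83e-05, and 0.01 between H2B/p53dIEC and control). Fgf15 passed the filter on low counts only through the H2BdIEC libraries, so its call is not independent of the filter. Cubn, which encodes the vitamin B12 receptor cubilin, and Slc10a2, which encodes the ileal bile acid transporter, were also lower in H2B/p53dIEC than in H2BdIEC (-2.24 ± 0.33 and -1.68 ± 0.33), and for both H2BdIEC was above control (2.41 and 1.23). Osr2 was lower too (-1.09 ± 0.20), but in H2BdIEC it was already under control (-0.80). Of 10 proximal genes Pdx1, the duodenal transcription factor gene, was higher (0.58 ± 0.11), Cybrd1, an iron reductase gene, was lower (-0.43 ± 0.08) and 8 did not pass, while against control 4 were higher and 2 lower. Over all autosomal genes 14.0% were higher and 15.4% lower in H2B/p53dIEC than in H2BdIEC. Gkn3, a stomach mucosal gene, stood at 0.985 to 1.78 CPM in H2BdIEC and 7.93 to 8.37 CPM in H2B/p53dIEC (2.53 ± 0.27; 2.05 against control), and it was the only 1 of 10 stomach genes to pass the filter on low counts. The labels do not give the segment of intestine from which the organoids were grown.

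Among other epithelial genes, Cldn8, a claudin of tight junctions, was lower (33.9 to 42.2 against 12.9 to 15 CPM, -1.48 ± 0.12), with 2 of 7 claudins lower in all. Beside the counts of this paragraph, 15.4% of all autosomal genes were lower and 14.0% higher. The keratin genes Krt19 and Krt20 were lower (-0.39 ± 0.08 and -0.93 ± 0.27). Of 11 genes of a fetal-like state 5 were lower and 2 higher, among them the surface protein genes Msln (-1.39 ± 0.16) and Ly6a (-1.30 ± 0.18), for which H2BdIEC was above control (1.38 and 0.90) and H2B/p53dIEC near it (-0.01 and -0.40, adjusted p = 0.98 and 0.11). Of 6 tuft cell markers 1 was lower, Dclk1 (-0.50 ± 0.18, adjusted p = 0.049), and of 5 colon genes 1 passed the filter, Aqp8 (0.15, adjusted p = 0.78).

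Genes at 0 counts in every H2B/p53dIEC library were noted after their values were seen. Ano3, a gene of the anoctamin membrane protein family (chromosome 2, 110655201 to 110950923), read 17, 14.5 and 13.4 CPM in H2BdIEC and 0.420 to 0.834 CPM in controls. Against a floor of 3 counts over the H2B/p53dIEC group it was at least 231-fold lower. Cd80, a T cell costimulatory ligand gene, read 1.32 to 2.13 CPM in H2BdIEC and 0 to 0.179 CPM in controls, and was at least 25.2-fold lower by the same floor. Neither Ano3 nor Cd80 would have passed the filter on low counts without the H2BdIEC libraries, so these differences are not independent of the filter. Compared with control, Ano3 was lower in H2B/p53dIEC (adjusted p = 5.95e-04) and Cd80 did not pass (adjusted p = 0.10). Trp53-ps, a pseudogene copy of Trp53, read 1.24 to 3.62 CPM in H2BdIEC and 2.64 to 4.17 CPM in controls, and reads of the parent gene could be counted there.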
